A study of Mus musculus with 8 samples.

Results

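The genes considered here encode enzymes that add methyl groups to histone lysines or remove them, together with the related PR domain (Prdm) and SET and MYND domain (Smyd) families. They were taken by name from the GENCODE M21 protein-coding annotation, as all symbols that start with Kdm, Kmt2, Kmt5, Setd, Nsd, Prdm, Suv39h, Smyd or Ehmt. Kdm2b was left out by that rule. This gave 62 of 21951 protein-coding genes. One of them, Nsdhl, is caught only by its letters: it encodes a sterol dehydrogenase of cholesterol synthesis and no histone enzyme, so 61 of the 62 belong to the families named.

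Methyl marks on histone lysines are mostly written by SET domain enzymes and erased by LSD1-type (Kdm1) and Jumonji-type (the other Kdm) demethylases. Methylation of H3K4 marks active promoters and enhancers, H3K36 methylation follows transcribed gene bodies, and H3K9, H3K27 and H4K20 methylation are linked to silent or compacted chromatin. In embryonic stem cells (ESCs) these enzymes help to hold developmental genes in a state that can be switched on or off during differentiation.

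Binding was measured by chromatin immunoprecipitation and sequencing (ChIP-seq) in the mouse ESC line E14Tg2a at passages 37 to 40, and the data are 8 lists of peaks, 1 for each library. Pluripotent ESCs were grown with leukemia inhibitory factor (LIF), with 1 library each for FGFR1 (a fibroblast growth factor receptor that also enters the nucleus) and the nuclear receptors RXR (labelled RXRα) and Nur77. LIF-free monolayers given 1 µM retinoic acid (RA) for 48 h were profiled for FGFR1 with 2 libraries (RA 1 and RA 2, the second titled as experiment 2). They were profiled for RXR, Nur77 and the histone variant H3.3 with 1 library each. Cells of several plates were pooled for a precipitation, and nothing in the labels gives separate cultures for replicates. All groups share the same line, the labels name no allele or transgene that separates them, and LIF withdrawal and RA come together. The lists hold binding and not expression, so markers of stem or neuronal cells were not checked from them, and the RNA-seq of the same study was not analysed here.

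A gene was counted as bound where a peak overlapped by at least 20 bp the stretch within 1000 bp of any of its annotated transcript starts. A peak summit can therefore lie slightly more than 1000 bp from a start. Peaks are described by the deposited fold over background and −log10 p at the summit, and by the number of fragments at the summit that these values imply. Depth is not given in the lists and was read as the inferred background density. Among FGFR1 libraries it was 2.71 fragments per kb in LIF, 4.16 in RA 1 and 6.78 in RA 2. It went from 7.09 in LIF to 1.87 in RA in the RXR libraries and from 4.98 to 3.82 in the Nur77 libraries, and the H3.3 library had 1.27. The lists also differ in length, with 11378 peaks for FGFR1 in LIF, 46137 in RA 1 and 14082 in RA 2. For RXR they held 30586 peaks in LIF and 15224 in RA, for Nur77 22651 and 25995, and for H3.3 10634. No comparison below carries a test: only FGFR1 in RA has replicates, and the spread of its 2 libraries is the only replicate error.

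The sequences below are those of the sites that the results turn on, read from GRCm38 (the assembly behind mm10) on the strand of each gene and 5′ to 3′. They are cut off where an untranslated exon of a protein-coding gene begins, the Setd5 and Setdb1 stretches overlap exons of noncoding genes (Gt(ROSA)26Sor and Gm37500), and capitals mark the feature named in each case. Setd5 encodes a SET domain protein and shares its 5′ end with the noncoding Rosa26 gene, Gt(ROSA)26Sor, whose nearest start on the opposite strand is 32 bp away. The stretch around its FGFR1 RA 2 summit (chr6:113077060-113077260, plus strand) has 20 CpG in 201 bp.
Setd5 upstream: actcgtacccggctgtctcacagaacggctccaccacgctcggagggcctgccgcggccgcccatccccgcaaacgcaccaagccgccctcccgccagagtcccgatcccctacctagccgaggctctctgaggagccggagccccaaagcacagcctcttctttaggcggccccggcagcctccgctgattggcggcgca
Smyd4 encodes a Smyd family protein and runs divergently from Rpa1, a single-strand DNA binding subunit gene, with starts 109 bp apart. The 108 bp around its FGFR1 RA 1 summit (chr11:75348325-75348432, plus strand) end at the gene's start.
Smyd4 upstream: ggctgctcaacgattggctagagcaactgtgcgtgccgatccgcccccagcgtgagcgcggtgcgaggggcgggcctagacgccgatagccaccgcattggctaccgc
Kmt5b encodes an H4K20 methyltransferase and held the highest FGFR1 −log10 p of all members in RA. The 144 bp around that summit (chr19:3767731-3767874, plus strand) lie in its intron and hold 20 CpG.
Kmt5b intron: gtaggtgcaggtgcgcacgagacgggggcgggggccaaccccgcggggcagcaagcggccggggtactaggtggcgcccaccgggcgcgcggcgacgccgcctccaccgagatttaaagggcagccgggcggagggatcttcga
The Smyd1 upstream site (chr6:71322649-71322769, minus strand) is shown because it is an alternating purine and pyrimidine tract of 59 bp, in capitals, and Smyd1 was counted as bound in 5 libraries through such tracts alone.
Smyd1 tract: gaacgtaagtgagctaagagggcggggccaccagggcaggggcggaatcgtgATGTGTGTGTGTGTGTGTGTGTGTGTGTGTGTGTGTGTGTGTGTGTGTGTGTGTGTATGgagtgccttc

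The next 5 stretches hold, in capitals, transcription factor words that were searched on both strands: TGACGTCA (cAMP response element), CCGGAAG (ETS), GCATGCGC (NRF1) and AGGTCA (the nuclear receptor core). They stand upstream of Suv39h2 (an H3K9 methyltransferase, chr2:3475032-3475196, minus strand), Nsd2 (an H3K36 methyltransferase, chr5:33820295-33820495, plus strand), Setdb1 (an H3K9 methyltransferase, chr3:95357203-95357310, minus strand), Kmt2c (an H3K4 methyltransferase, chr5:25499530-25499730, minus strand) and Smyd3 (a Smyd family methyltransferase, chr1:179518042-179518151, minus strand).
Suv39h2 upstream: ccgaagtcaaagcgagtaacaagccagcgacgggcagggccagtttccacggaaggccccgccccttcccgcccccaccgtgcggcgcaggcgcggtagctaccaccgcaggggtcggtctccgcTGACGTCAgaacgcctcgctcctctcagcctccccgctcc
Nsd2 upstream: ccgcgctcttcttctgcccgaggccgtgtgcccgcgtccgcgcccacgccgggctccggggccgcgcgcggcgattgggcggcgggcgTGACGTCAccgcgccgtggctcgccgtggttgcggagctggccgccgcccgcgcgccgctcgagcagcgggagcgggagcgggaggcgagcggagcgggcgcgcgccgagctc
Setdb1 upstream: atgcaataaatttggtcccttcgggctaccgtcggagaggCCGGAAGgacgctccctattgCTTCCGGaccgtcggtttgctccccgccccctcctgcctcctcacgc
Kmt2c upstream: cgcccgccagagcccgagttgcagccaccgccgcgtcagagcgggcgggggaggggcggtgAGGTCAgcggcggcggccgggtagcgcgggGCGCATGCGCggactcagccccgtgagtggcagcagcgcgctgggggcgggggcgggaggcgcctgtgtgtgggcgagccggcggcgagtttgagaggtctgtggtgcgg
Smyd3 upstream: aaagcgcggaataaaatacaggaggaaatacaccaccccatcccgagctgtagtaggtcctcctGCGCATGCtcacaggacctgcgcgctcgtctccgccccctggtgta
Words inside transcribed 5′ ends are given as 30 bp only: AAGATGGC (YY1) at Smyd5 (chr6:85431991-85432020, plus strand), CACGTG (E-box) at Prdm4 (chr10:85916567-85916596, minus strand) and CCGGAAG at Kdm5a (chr6:120364111-120364140, plus strand).
Smyd5 start: gaggcgtgcccAAGATGGCggcctccatgt
Prdm4 start: gggatgtggtagCACGTGacaccggcccca
Kdm5a start: tcctccgcgcgCCGGAAGcgcgcgttccac

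FGFR1 was listed at more members in RA than in LIF. It lay at 25 of 62 members in LIF (40.3%, against 17% of all protein-coding genes), and at 50 of 62 in each RA library (80.6%), against 50.7% of all genes in RA 1 and 49.6% in RA 2. The mean in RA was thus 50 ± 0 (SD, n = 2) and the difference from LIF was 25 members. The SD of 0 comes from equal totals and not from the same members, as 6 had FGFR1 in RA 1 alone and 6 in RA 2 alone. In RXR the numbers went the other way, with 44 members in LIF (71%, against 42.5% of all genes) and 19 in RA (30.6%, against 23.3%). Nur77 lay at 27 members in LIF (43.5%, against 25.5%) and 22 in RA (35.5%, against 25.8%), and H3.3 at 11 in RA (17.7%, against 15.5%).

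Members were thus bound at higher rates than the average gene in every library, by the smallest margin for H3.3. Members also have more annotated starts, with a median of 6 against 3, and wider promoter windows, with a median of 6459.5 bp against 4002 bp. Counting only the 5′ end of each gene, FGFR1 lay at 20 members in LIF (32.3%, against 14.9% of all genes) and at 45 and 46 in RA (72.6% and 74.2%, against 44.7% and 45.9%). The same count gave 40 members for RXR in LIF and 15 in RA (64.5% and 24.2%, against 37.6% and 20%), 25 and 16 for Nur77 (40.3% and 25.8%, against 21.7% and 21.2%) and 9 for H3.3 (14.5%, against 13.1%).

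The promoters of the members are also richer in CpG. From 250 bp upstream to 50 bp downstream of the gene's 5′ end, the median ratio of observed to expected CpG was 0.774 in members and 0.525 in all genes, and 50 of 62 members (80.6%) were above 0.6, against 44.3% of all genes. Among the 9730 genes above 0.6 the members stood above the rest in the LIF libraries and for FGFR1 in RA, and below them in the other RA libraries. There FGFR1 lay at 82% of the 50 members in RA 1 and 84% in RA 2, against 78% and 80.6% of all such genes, and RXR in LIF at 70% against 67.6%. FGFR1 in LIF was at 46% against 29.3%, and Nur77 in LIF was at 46% against 40.8%. In RA the members lay below the other CpG-rich genes for RXR (28% against 37.6%), Nur77 (34% against 40.7%) and H3.3 (20% against 25.7%). Genes at or below 0.6 numbered 12221, of which 12 were members. FGFR1 lay at 2 of these members in LIF (16.7%, against 7.19%), 9 in RA 1 (75%, against 29%) and 8 in RA 2 (66.7%, against 24.9%), and RXR at 9 in LIF (75%, against 22.5%) and 5 in RA (41.7%, against 12%). Nur77 lay at 4 in LIF (33.3%, against 13.3%) and 5 in RA (41.7%, against 14%), and H3.3 at 1 (8.33%, against 7.35%). The part of CpG content in the counts was not tested.

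**Figure D1:**
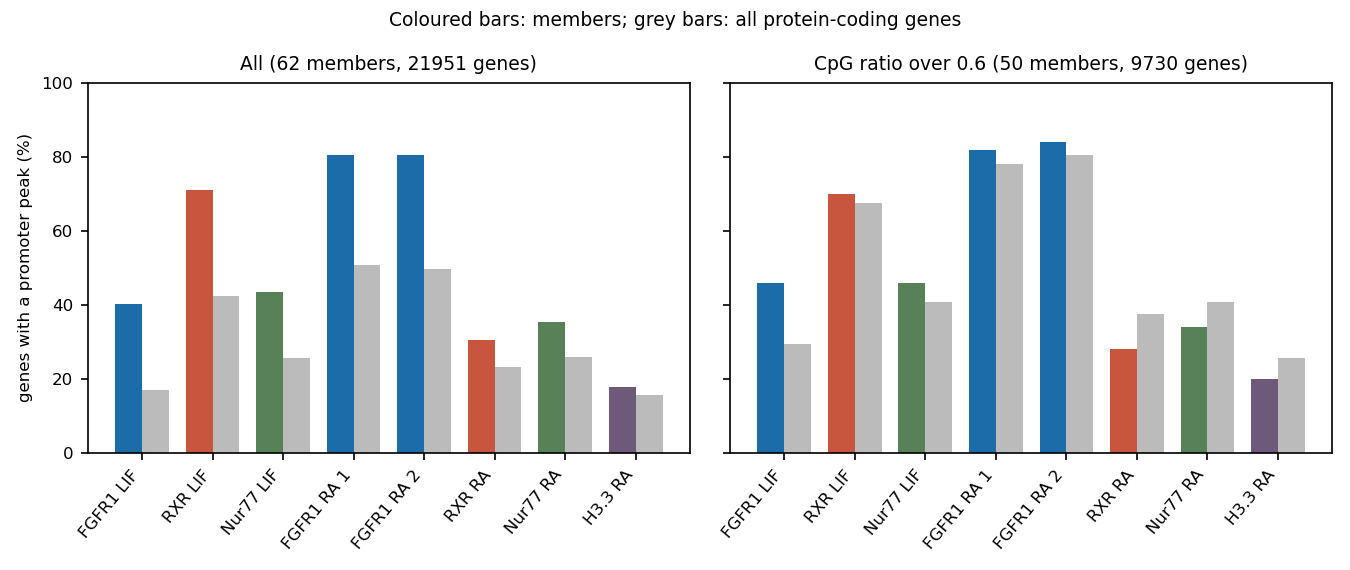
Share of genes with a promoter peak (y axis, %) in each library (x axis), for the members (coloured bars) and all protein-coding genes (grey bars), over all genes (left) and over genes whose CpG ratio is above 0.6 (right). The members are above all genes in every library on the left, and on the right they are at 82% and 84% against 78% and 80.6% for FGFR1 in RA and below the grey bars for RXR, Nur77 and H3.3 in RA.

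Depth differed between the RXR libraries. The RXR library in RA had a background density of 1.87 fragments per kb and that in LIF 7.09. Summit fragments and background of the LIF library were scaled to the density in RA, and the p limit was applied again. RXR in LIF then kept 5 members (8.06%, against 3.52% of all genes), and the difference turned to 14 more in RA. In an alternative chosen after seeing the data, scaled fragments were rounded to the nearest whole number instead of down. RXR in LIF then kept 11 members (17.7%, against 7.39% of all genes), a difference of 8 more in RA. The direction of the RXR difference thus turned with depth scaling, at the members and also over all genes, of which 23.3% had RXR in RA. The scaling multiplied every LIF summit by 1 fixed ratio and kept the LIF fragment length (80 bp, against 116 bp in RA). It does not redraw reads, so it cannot say which peaks a shallower LIF library would have given. For FGFR1 the LIF library was the shallowest. Scaling RA 1 and RA 2 to it left 50 and 46 members (80.6% and 74.2%, against 48.5% and 44.1% of all genes). The strongest 10634 peaks of each list were also taken, the same number everywhere. FGFR1 then lay at 23 members in LIF (37.1%, against 15.5% of all genes), 13 in RA 1 (21%, against 18.1%) and 46 in RA 2 (74.2%, against 43.1%). The FGFR1 difference thus rests on how peaks are chosen. With equal numbers its direction at the members turned for RA 1 and held for RA 2, while over all genes both RA shares were above that in LIF.

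**Figure D2:**
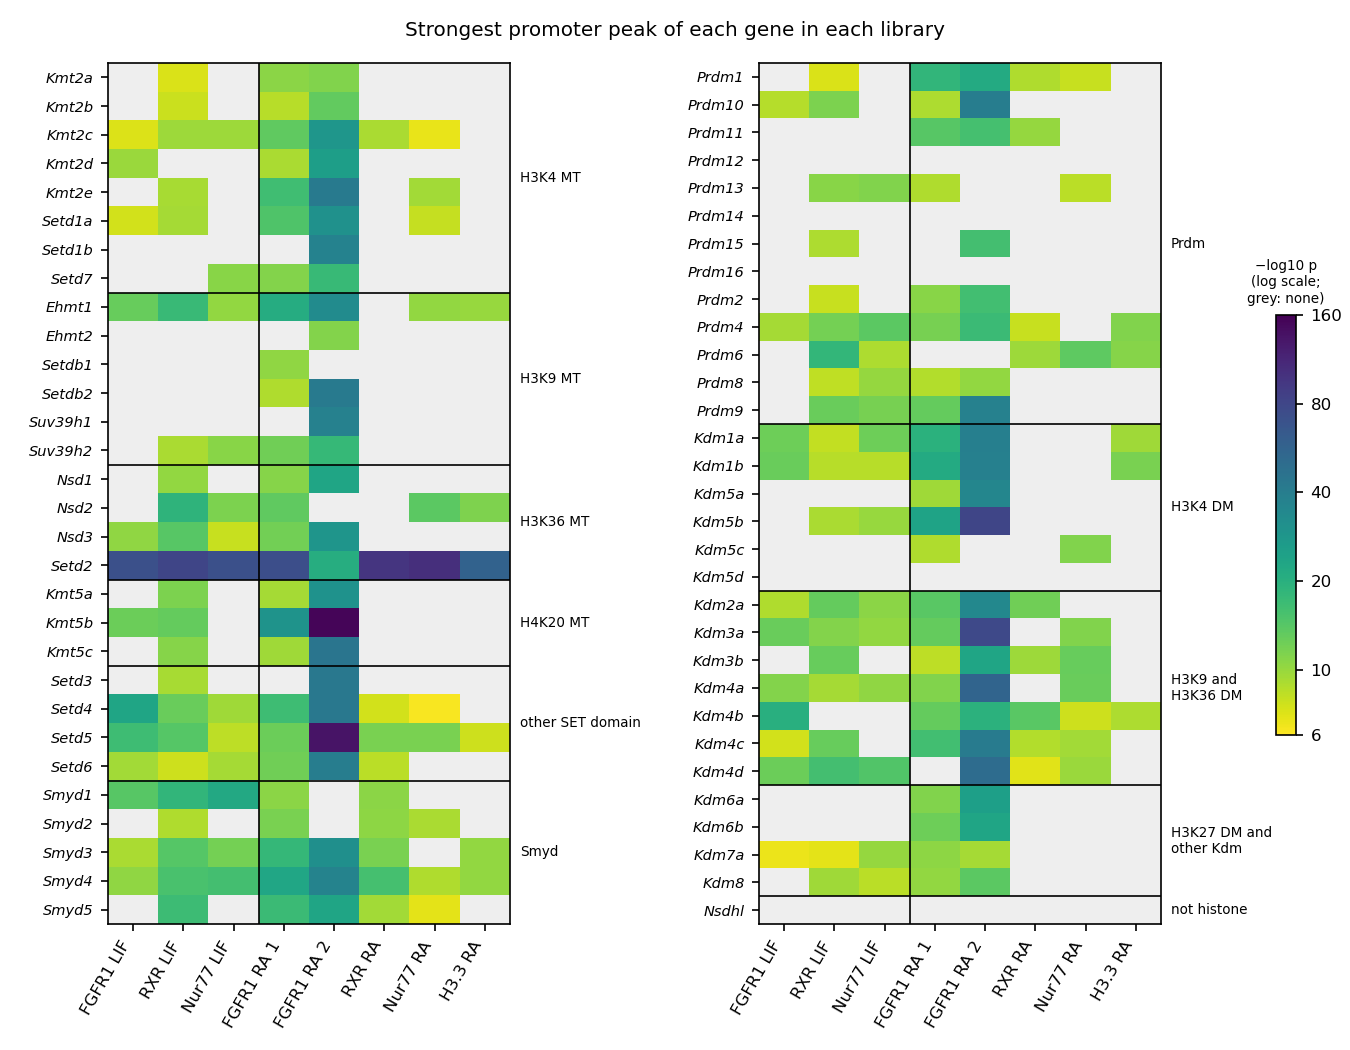
Deposited −log10 p of the strongest promoter peak (colour, log scale) for 61 members (rows, grouped by enzyme class, MT for methyltransferases and DM for demethylases) in the 8 libraries (columns); grey means no peak. The FGFR1 columns in RA are filled for most members, Setd2 is dark in 7 of 8 columns through its intron site, and Nsdhl, Kdm5d, Prdm12, Prdm14 and Prdm16 are grey throughout.

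In RA, FGFR1 was present at 44 members in both libraries (71%, against 39.5% of all genes) and absent from both at 6 (against 39.1%). Peaks of the 2 libraries shared at least 1 base at 38 of these 44 (86.4%), close to the 86.8% over all genes bound in both. Where they did not, the strongest summits in RA 1 and RA 2 fell at 135 and −184 bp from the nearest start for Kdm3b, −593 and −1062 bp for Kmt2d, −81 and −494 bp for Prdm10, and −227 and −122 bp for Prdm11. For Prdm4 they fell at −594 and 18 bp, and for Prdm8 at 135 and 353 bp. The nearest start can differ between the 2 libraries, so these distances do not give the spacing of the summits. Counted from the gene's 5′ end, the summits fell at 32934 and −494 bp for Prdm10, 14633 and 234 bp for Prdm4, and −227 and 474 bp for Prdm11. Kdm3b is an H3K9 demethylase gene and Kmt2d encodes the main H3K4 monomethyltransferase of enhancers. The −log10 p of these strongest peaks ran from 8.36 to 14.0 in RA 1 and from 10.2 to 39.9 in RA 2.

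Of the 25 members with FGFR1 in LIF, 23 had it in both RA libraries (92%, against 86.5% of all genes), the exceptions being Kdm4d and Smyd1. Of the 37 without it in LIF, 21 had it in both RA libraries (56.8%, against 29.8%): Kdm3b, Kdm5a, Kdm5b, Kdm6a, Kdm6b, Kdm8, Kmt2a, Kmt2b, Kmt2e, Kmt5a, Kmt5c, Nsd1, Prdm1, Prdm11, Prdm2, Prdm8, Prdm9, Setd7, Setdb2, Smyd5 and Suv39h2. The median −log10 p of the strongest peak at the 23 shared members was 10.4 in LIF, 13.4 in RA 1 and 34.4 in RA 2. At the 21 members bound in RA only it was 10.9 in RA 1 and 23.2 in RA 2. Strongest summits in RA 2 held a median of 38.5 fragments at bound members, against 12 in RA 1 and 11 in LIF, with Setd2 an exception (29, against 66 and 68). The libraries differ in this way beyond the members. Over all bound genes the median −log10 p of the strongest peak was 10.6 in LIF, 13.2 in RA 1 and 25.5 in RA 2. Peaks of the whole lists held a median of 11, 10 and 27 summit fragments, with fragment lengths of 114, 72 and 153 bp. A further 6 members had FGFR1 in RA 1 alone (Kdm5c, Nsd2, Prdm13, Setdb1, Smyd1 and Smyd2) and 6 in RA 2 alone (Ehmt2, Kdm4d, Prdm15, Setd1b, Setd3 and Suv39h1).

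**Figure D3:**
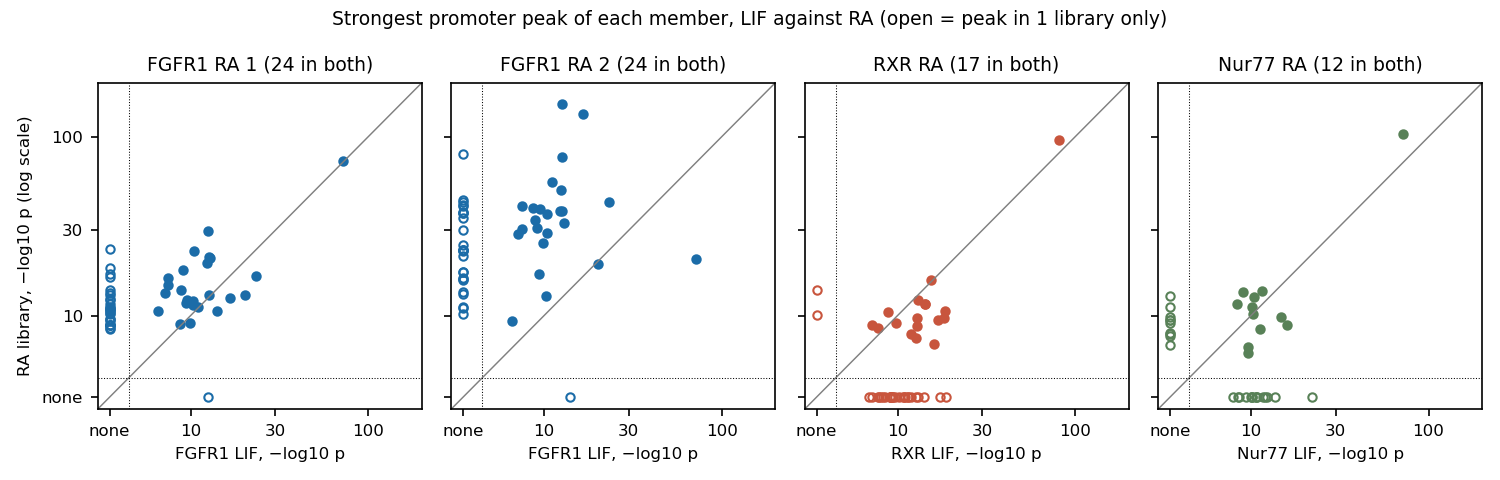
Strongest promoter peak of each member by −log10 p (log scales) in the LIF library (x axis) and the RA library (y axis) of the same factor, with members bound in 1 library only as open circles on the "none" positions and the diagonal marking equal values. FGFR1 members bound in both states are 24 in each RA panel, in RA 2 all but Setd2 and Kdm4b lie above the diagonal, and the RXR panel has 27 open circles along its lower edge and 2 along its left edge. Over all bound genes the median was also higher in FGFR1 RA 2 (25.5) than in LIF (10.6).

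In the classes that follow, a count is to be read against the shares of all genes given above, namely 17% for FGFR1 in LIF, 50.7% and 49.6% in RA 1 and RA 2, 42.5% and 23.3% for RXR in LIF and RA, 25.5% and 25.8% for Nur77, and 15.5% for H3.3, and classes of 3 to 14 genes give coarse shares. The genes grouped here as H3K4 methyltransferases, by family and not by the activity of each, are the MLL family Kmt2a to Kmt2e, the COMPASS enzymes Setd1a and Setd1b, and Setd7. FGFR1 lay at 3 of these 8 genes in LIF (Kmt2c, Kmt2d and Setd1a), 7 in RA 1 and 8 in RA 2, and no H3.3 peak was listed at any. Kmt2e had the highest −log10 p shared by the 2 RA libraries, with 17 fragments (9.13-fold, −log10 p 16.4) at 97 bp in RA 1 and 67 fragments (8.32-fold, 41.3) at −988 bp in RA 2, and no FGFR1 peak in LIF. The strongest summits of the 2 libraries thus lie apart, and Kmt2e held further RA 1 peaks at −468 and −95 bp. RXR in LIF had 2 peaks at Kmt2e, of −log10 p 9.18 at −652 bp and 7.30 at 203 bp, and Nur77 in RA had 1 at −647 bp (9.50).

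Kmt2c, one of the enhancer H3K4 monomethyltransferases, was bound in all libraries but H3.3. FGFR1 in LIF had 2 peaks there of 7 fragments each (5.32-fold, −log10 p 7.18), at 19 and −967 bp. The upstream site shown above carries AGGTCA and GCATGCGC within 50 bp of 3 summits that lie within 14 bp of each other: Nur77 in LIF (−861 bp, −log10 p 9.67), FGFR1 RA 1 (−847 bp, 13.4) and RXR in RA (−857 bp, 9.05). FGFR1 RA 2 had its strongest summit at −701 bp with 38 fragments (28.5). Kmt2d had 13 fragments in LIF at −343 bp from an internal start, in a coding exon (6.10-fold, 9.89), and Setd1a 10 fragments at −118 bp (5.18-fold, 7.49).

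The H3K9 methyltransferases are Ehmt1 and Ehmt2 (GLP and G9a, which act as a pair), Setdb1, Setdb2, Suv39h1 and Suv39h2. FGFR1 lay at 1 of 6 in LIF, 4 in RA 1, 5 in RA 2 and 3 in both. Ehmt1 was bound in all libraries but RXR in RA. Its FGFR1 peak held 11 fragments in LIF (8.23-fold, −log10 p 12.9, summit at 41 bp), 17 in RA 1 (11.8-fold, 21.0, at 47 bp) and 39 in RA 2 (11.4-fold, 32.9, at −117 bp). H3.3 had 2 peaks at Ehmt1, of 8 fragments at −73 bp (9.93) and 7 fragments at 396 bp (8.51). Its partner gene Ehmt2, which shares a divergent promoter with C2, had a single peak in all libraries together, in RA 2 at −109 bp with 22 fragments (4.94-fold).

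Setdb1 likewise had a single peak, in RA 1 at −8 bp with 8 fragments (6.92-fold, −log10 p 10.4), beside 2 copies of CCGGAAG in opposite directions in the sequence above. Suv39h1 had 1 in RA 2 at 17 bp with 39 fragments (13.9-fold, 37.8). Suv39h2 was bound by Nur77 in LIF at 245 bp (10.7), by RXR in LIF at −45 bp (9.15) and by FGFR1 in RA 1 at −65 bp (12.2), and the last 2 summits lie within 50 bp of its TGACGTCA, while the strongest RA 2 summit lay at 11 bp (17.6).

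The H3K36 methyltransferases are Nsd1, Nsd2, Nsd3 and Setd2, the last of which places the trimethyl mark. RXR in LIF and FGFR1 RA 1 lay at 4 of 4, FGFR1 RA 2 at 3 and FGFR1 in LIF at 2. Setd2 was listed in every library, as only 2.9% of all genes were, with Setd5 and Smyd4 the other members. At Setd2 this rests on an intron site, with peaks that reach within 1000 bp of an internal start, which was called in 7 libraries. Its strongest summit held 68 fragments for FGFR1 in LIF (19.7-fold, −log10 p 71.7), 75 for RXR (21.1-fold, 80.8) and 66 for Nur77 (20.6-fold, 71.8). In RA it held 66 for FGFR1 RA 1 (21.1-fold, 73.0), 84 for RXR (24.4-fold, 95.9), 95 for Nur77 (23.0-fold, 103) and 53 for H3.3 (18.6-fold, 57.1).

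These were the highest values of any member in every library but RA 2, they ranged from 57.1 to 103 in −log10 p across factors and states, and 6 of the strongest summits fell within 7 bp of each other. Between 92% and 100% of the bases under these strongest peaks were soft-masked. In RA 2 no peak was called at this site, and Setd2 was counted through its true 5′ end, with 29 fragments at −252 bp (8.20-fold, 20.8). At the 5′ end RA 1 had peaks at −492 and −27 bp (12.3 and 13.5), RXR in LIF at −142 and 222 bp (7.44 and 8.54) and Nur77 in RA at −29 bp (9.26). Without peaks that are at least 50% soft-masked (an alternative chosen after seeing the data), Setd2 was no longer listed for FGFR1 in LIF, Nur77 in LIF, RXR in RA or H3.3.

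Nsd3 had FGFR1 in LIF at −267 bp with 13 fragments (6.39-fold, −log10 p 10.4), in RA 1 at −249 bp with 14 and in RA 2 at −254 bp with 44 (28.8), so its 3 FGFR1 summits lie within 18 bp. Nsd2 had its CRE-bearing upstream site in FGFR1 RA 1 (−330 bp, 13.3), Nur77 in RA (−341 bp, 11.2) and H3.3 (−333 bp, 9.81, 9 fragments). A further site near its start was called for RXR and Nur77 in LIF and for FGFR1 RA 1, Nur77 and H3.3 in RA, with 5 summits within 37 bp, the strongest being Nur77 in RA with 14 fragments (8.22-fold, 13.7) and H3.3 holding 10 fragments at −30 bp (7.42-fold, 11.3). The strongest RXR peak at Nsd2 in LIF (10.6-fold, 18.9, 17 fragments) lay elsewhere, in an intron, and held an alternating tract of 40 bp.

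The H4K20 methyltransferases Kmt5a, Kmt5b and Kmt5c had RXR at 3 of 3 in LIF and 0 in RA, and FGFR1 at 1 in LIF and 3 in each RA library. Kmt5b held 14 FGFR1 fragments in LIF at 180 bp (7.51-fold, −log10 p 12.5), 28 in RA 1 at 246 bp (13.6-fold, 29.8) and 149 in RA 2 at 251 bp (22.8-fold, 153). The RA summits are 5 bp apart and the RA 2 peak ranked 31st of its list of 14082. Nur77 and H3.3 had no peak at these 3 genes. With 23.3% of all genes bound by RXR in RA and 15.5% by H3.3, 0 of 3 is near the background, and the depth of the RXR libraries applies here too.

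Of the other SET domain genes, Setd3 to Setd6, FGFR1 lay at 3 in LIF and 3 and 4 in RA, and RXR in RA at 3. Setd5 was bound in every library within a stretch of 672 bp (chr6:113076822-113077493). FGFR1 held 16 fragments in LIF at −314 bp (9.49-fold, −log10 p 16.6), 15 in RA 1 at −262 bp (7.31-fold, 12.6) and 151 in RA 2 at −205 bp (17.2-fold, 135). RXR had 18 fragments in LIF at −81 bp (7.51-fold, 14.2) and 12 in RA at −37 bp (7.35-fold, 11.6). Nur77 had 10 in LIF at −48 bp (5.73-fold, 8.37) and 11 in RA at −266 bp (7.49-fold, 11.6), and H3.3 had 7 at −322 bp (5.58-fold, 7.67). By strongest summit, the 3 FGFR1 libraries, H3.3 and Nur77 in RA thus lay between −322 and −205 bp, and both RXR libraries and Nur77 in LIF between −81 and −37 bp. Weaker peaks did not keep to these positions, as FGFR1 RA 1 had others at −978, −31 and 14 bp (8.25, 8.25 and 10.3), FGFR1 RA 2 at −1042 bp (16.2) and RXR in LIF at −941 bp (13.1).

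Setd4 had the strongest FGFR1 peak in LIF after Setd2, with 22 fragments at 36 bp (11.8-fold, −log10 p 23.3), and held FGFR1 in RA 1 with 18 fragments (16.7) and in RA 2 with 58 (10.6-fold, 43.1). Setd6, which methylates a nonhistone protein, RelA, had 13 fragments in LIF at −7 bp (5.87-fold, 9.51), 16 in RA 1 (12.2) and 48 in RA 2 at −14 bp (39.6).

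The Smyd genes were the class with RXR at all 5 in both LIF and RA, and FGFR1 lay at 3, 5 and 3 of them in LIF, RA 1 and RA 2. Smyd4 was bound in every library within 657 bp (chr11:75348133-75348789), a stretch it shares with Rpa1. FGFR1 held 10 fragments in LIF at −68 bp (6.94-fold, −log10 p 10.4), 20 in RA 1 at −54 bp (12.2-fold, 23.0) and 44 in RA 2 at −168 bp (11.8-fold, 37.1). RXR had 17 in LIF at −22 bp (8.52-fold, 15.4) and 13 in RA at 2 bp (9.55-fold, 15.8). Nur77 had 17 in LIF at 23 bp (8.85-fold, 16.0) and 9 in RA at 20 bp (6.14-fold, 8.82), and H3.3 had 9 at 34 bp (6.91-fold, 10.2). The strongest FGFR1 summits thus lay upstream of the start, those of Nur77 and H3.3 downstream of the nearest one, and Nur77 in LIF had a further peak at −192 bp (12.1).

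Smyd3 had FGFR1 with 9 fragments in LIF at 106 bp (6.31-fold, −log10 p 9.12), 14 in RA 1 at −15 bp (18.0), 35 in RA 2 at −10 bp (31.0) and H3.3 with 7 at −22 bp (6.64-fold, 10.2). The GCATGCGC word of the sequence above lies within 50 bp of the last 3 summits. Smyd5 had the AAGATGGC word within 50 bp of summits in 5 libraries, namely RXR in LIF (−1 bp, 16.9), FGFR1 RA 1 (2 bp, 11.6), FGFR1 RA 2 (−4 bp, 23.2), RXR in RA (24 bp, 9.44) and Nur77 in RA (11 bp, 6.86). At Smyd1, a muscle methyltransferase gene, each peak held an alternating tract of at least 20 bp, the strongest being Nur77 in LIF with 20 fragments at −476 bp (11.6-fold, 22.0). FGFR1 in LIF had 13 fragments there at −73 bp (8.59-fold, 14.0), and RXR 19 at −75 bp (9.77-fold, 18.4).

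**Figure D4:**
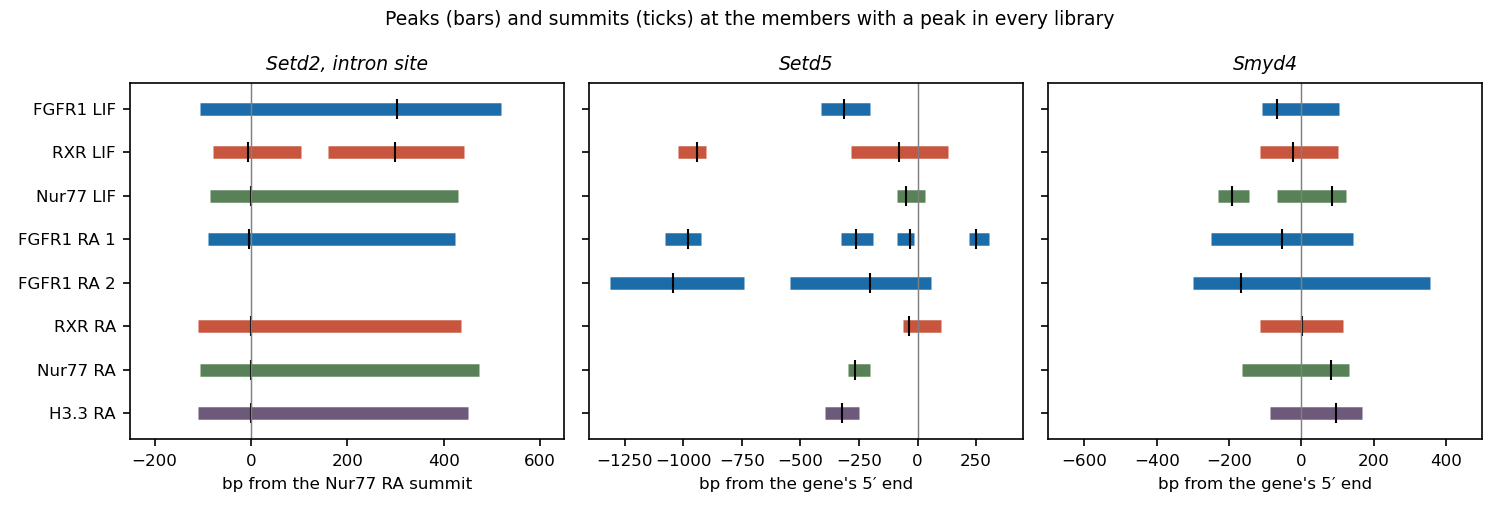
Extent (bars) and summits (ticks) of the peaks of the 8 libraries (rows) at the intron site of Setd2, in bp from the Nur77 RA summit, and around the 5′ ends of Setd5 and Smyd4, in bp from the gene's 5′ end. At Setd2 no bar stands in the FGFR1 RA 2 row and 6 of the strongest summits lie within 7 bp, while at Setd5 the strongest summits fall at −322 to −205 bp and at −81 to −37 bp, and at Smyd4 the FGFR1 ticks lie upstream of 0.

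The Prdm genes encode zinc finger proteins with a PR domain, some with methyltransferase activity. Of 14, FGFR1 lay at 3 in LIF, 9 in each RA library and 8 in both, and RXR at 10 in LIF and 4 in RA. Prdm1 (Blimp1, a repressor needed for primordial germ cells) had no FGFR1 peak in LIF, 15 fragments in RA 1 at 16 bp (10.7-fold, −log10 p 18.4) and 26 in RA 2 at −940 bp (9.39-fold, 21.5), with a further RA 2 peak of 19 fragments at −28 bp (13.3). The RA 1 summit and the latter lie at an internal start, shared with RXR and Nur77 in RA and with RXR in LIF (8 fragments at 20 bp, 7.22). Prdm14, a pluripotency regulator expressed in ESCs, and Prdm12 and Prdm16 had no promoter peak in any list.

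Prdm4 held an E-box in the 30 bp shown above within 50 bp of 6 summits, which span 55 bp: FGFR1 in LIF with 9 fragments (6.45-fold, −log10 p 9.37), RXR in LIF with 12 fragments, Nur77 in LIF with 13 fragments (8.41-fold, 13.7), FGFR1 RA 1 (11.3), RXR in RA (7.88) and H3.3 with 8 fragments (7.25-fold, 11.2). FGFR1 RA 2 lay at 18 bp from another start, with 20 fragments (17.0). Prdm10 had 9 FGFR1 fragments in LIF at 595 bp (6.05-fold, 8.67). Prdm9, the meiotic H3K4 methyltransferase that sets recombination sites, was bound by RXR in LIF (12.7) and Nur77 in LIF (11.7), and by FGFR1 in RA 1 (13.1) and RA 2 (37.7). Prdm6 was the member with RXR, Nur77 and H3.3 peaks and no FGFR1 peak in any library. Its strongest RXR peak in LIF had 22 fragments at 91 bp (8.78-fold, 18.3) with a 37 bp tract, its strongest Nur77 peak in RA 12 fragments at 595 bp (8.46-fold, 13.5), and its H3.3 peak 7 fragments at 166 bp from an internal start (6.84-fold, 10.9) with a 32 bp tract.

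The H3K4 demethylases are Kdm1a and Kdm1b (LSD1 and LSD2) and Kdm5a to Kdm5d. FGFR1 lay at 2 of 6 in LIF, 5 in RA 1, 4 in RA 2, and RXR at 3 in LIF and 0 in RA. Kdm5b had the highest −log10 p shared by the RA libraries in this class, with no peak in LIF, 23 fragments in RA 1 at 74 bp (11.7-fold, 23.7) and 97 in RA 2 at 45 bp (14.1-fold, 80.7). Kdm1a held 11 FGFR1 fragments in LIF at 49 bp (7.92-fold, 12.3), 18 in RA 1 at 16 bp (19.7) and 45 in RA 2 at 16 bp (38.6), with 8 fragments of H3.3 at −13 bp (6.55-fold, 9.55). Its strongest Nur77 peak in LIF (7.91-fold, 12.3) lay at an internal start.

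Kdm1b, which shares a promoter with Tpmt, held 11 FGFR1 fragments in LIF at 32 bp (8.10-fold, −log10 p 12.7), 19 in RA 1 at 12 bp (21.4), 46 in RA 2 at −8 bp (38.5) and 9 fragments of H3.3 at 18 bp (7.54-fold, 11.6). Summits of 6 libraries there span 63 bp. Kdm5a, which shares a promoter with Ccdc77, had FGFR1 in RA alone, at −43 and 1 bp (9.59 and 35.3), with the CCGGAAG shown above within 50 bp of both. Kdm5c, on the X chromosome, was listed in FGFR1 RA 1 and Nur77 in RA through a 21 bp tract at −158 and −162 bp (8.91 and 11.2), and its Y-linked relative Kdm5d had no peak.

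The H3K9 and H3K36 demethylases Kdm2a, Kdm3a, Kdm3b and Kdm4a to Kdm4d were the class most often bound by FGFR1 in LIF, with 6 of 7, against 6 and 7 in RA. Nur77 lay at 4 in LIF and 6 in RA, and RXR at 6 and 5. The rank in LIF rests on counting internal starts. With the gene's 5′ end only, FGFR1 in LIF stayed at Kdm3a, Kdm4a and Kdm4d and was not counted at Kdm2a, Kdm4b or Kdm4c. Setd4, Setd5, Setd6, Smyd1, Smyd3 and Smyd4 all stayed, so the class no longer led. Kdm4c had the highest −log10 p shared by the RA libraries, with 7 fragments in LIF at −38 bp (5.49-fold, 7.49), 13 in RA 1 at 11 bp (9.75-fold, 16.2) and 47 in RA 2 at −128 bp (12.6-fold, 40.8), all at an internal start, with summits 9311 to 9450 bp into the gene. Kdm3a held 11 fragments in LIF at 35 bp (8.10-fold, 12.7), 11 in RA 1 at 54 bp (13.1) and 80 in RA 2 at 14 bp (17.6-fold, 77.3), and Kdm4a 9 at 59 bp (7.32-fold, 11.1), 9 at 101 bp (11.1) and 62 at 50 bp (14.4-fold, 55.5).

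Kdm2a had 8 fragments in LIF at 2 bp from an internal start (6.22-fold, −log10 p 8.88), 16 in RA 1 at another start (13.9) and 38 in RA 2 at 12 bp (34.4), and its RXR peak in RA (12 fragments at −404 bp, 7.76-fold, 12.3) held a 38 bp tract. Kdm4d, which shares a promoter with Cwc15, had FGFR1 with 10 fragments in LIF at −361 bp (8.05-fold, 12.5), RXR with 14 in LIF at −386 bp (9.57-fold, 16.0) and Nur77 with 12 in LIF at −364 bp (9.07-fold, 14.7). In RA it had no peak in FGFR1 RA 1 and 51 fragments in RA 2 at −244 bp (15.9-fold, 50.3). Kdm4b was counted for FGFR1 in LIF only through an intron peak of 24 fragments (9.31-fold, 20.2) with a 33 bp tract. In RA its 5′ end held FGFR1 at 107 bp in RA 1 (13.0) and −2 bp in RA 2 (19.5), RXR with 14 fragments at 136 bp (8.37-fold, 14.0) and H3.3 with 8 fragments at 104 bp (6.28-fold, 8.99), and RXR had no peak there in LIF.

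The H3K27 demethylases Kdm6a (UTX) and Kdm6b (JMJD3), with Kdm7a and Kdm8, had FGFR1 at 1 of 4 in LIF and 4 in each RA library, and neither RXR, Nur77 nor H3.3 in RA. The lower depth of the RXR, Nur77 and H3.3 libraries in RA, given above, applies here too. Kdm6b had the highest value shared by the RA libraries, with 19 fragments in RA 1 at −320 bp (6.21-fold, −log10 p 12.4) and 51 in RA 2 at −336 bp (5.48-fold, 23.2). Both summits lie in a coding exon, 9140 and 9124 bp into the gene, beside an internal start, so FGFR1 was not called at its 5′ end. Kdm6a held 9 fragments in RA 1 at −307 bp (11.1) and 32 in RA 2 at −268 bp (24.9). Kdm7a had 7 fragments in LIF at −218 bp (4.98-fold, 6.57), the lowest FGFR1 value of the members in LIF.

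RXR kept 17 of its 44 LIF members in RA (38.6%, against 45.6% of all genes with RXR in LIF) and was listed at 2 of the 18 others, Kdm4b and Prdm11 (against 6.85%). The 17 kept members had a median −log10 p of 13.0 in LIF and the 27 lost ones 9.38. Scaled by the same fixed ratio, 2 of these 27 stayed within the p limit in LIF, or 3 with rounding to the nearest fragment. Of the 17, 3 or 8 did. Nur77 kept 12 of 27 members (44.4%, against 55.1%) and was listed at 10 of the 35 others (against 15.8%), among them Kdm3b, Kdm4b, Kdm4c, Kdm5c, Kmt2e, Prdm1, Setd1a, Smyd2 and Smyd5. The peaks of the 2 Nur77 libraries shared a base at 6 of the 12 kept members (50%), against 70.4% of all genes bound in both, and those of the 2 RXR libraries at 15 of 17 (88.2%, against 81.4%).

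At 12 members RXR was listed in LIF and not in RA while FGFR1 was listed in both RA libraries and not in LIF (against 10% of all genes): Kdm5b, Kdm8, Kmt2a, Kmt2b, Kmt2e, Kmt5a, Kmt5c, Nsd1, Prdm2, Prdm8, Prdm9 and Suv39h2. Their strongest RXR peaks in LIF had −log10 p between 7.22 (Kmt2a) and 12.7 (Prdm9). The depth of the RXR library in RA, given above, applies to each of them.

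FGFR1, RXR and Nur77 were listed together at 18 members in LIF (against 9.51% of all genes). In RA, both FGFR1 libraries with RXR and Nur77 were listed at 10 (against 11.1%), namely Kdm3b, Kdm4b, Kdm4c, Kmt2c, Prdm1, Setd2, Setd4, Setd5, Smyd4 and Smyd5. FGFR1 in both RA libraries with neither receptor was found at 23 members (against 14.1%), among them 3 of 3 H4K20 methyltransferases and 4 of 4 of the group of Kdm6a. Depth differed between these libraries, with 1.87 fragments per kb for RXR and 3.82 for Nur77 in RA, against 4.16 and 6.78 for FGFR1. The part of depth in this count was not tested. The 11 members with H3.3 were Ehmt1, Kdm1a, Kdm1b, Kdm4b, Nsd2, Prdm4, Prdm6, Setd2, Setd5, Smyd3 and Smyd4, and 9 of them had FGFR1 in both RA libraries (against 78.3% of all genes with H3.3). All 10 members with H3.3 and FGFR1 RA 1 had overlapping peaks of the 2, as had 87.6% of all such genes. With FGFR1 RA 2 the peaks overlapped at 7 of 9 (77.8%, against 76.9% of all such genes), and not at Prdm4 and Setd2. The 5 members with no promoter peak at all were Kdm5d, Nsdhl, Prdm12, Prdm14 and Prdm16, against 34.5% of all genes.

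**Figure D5:**
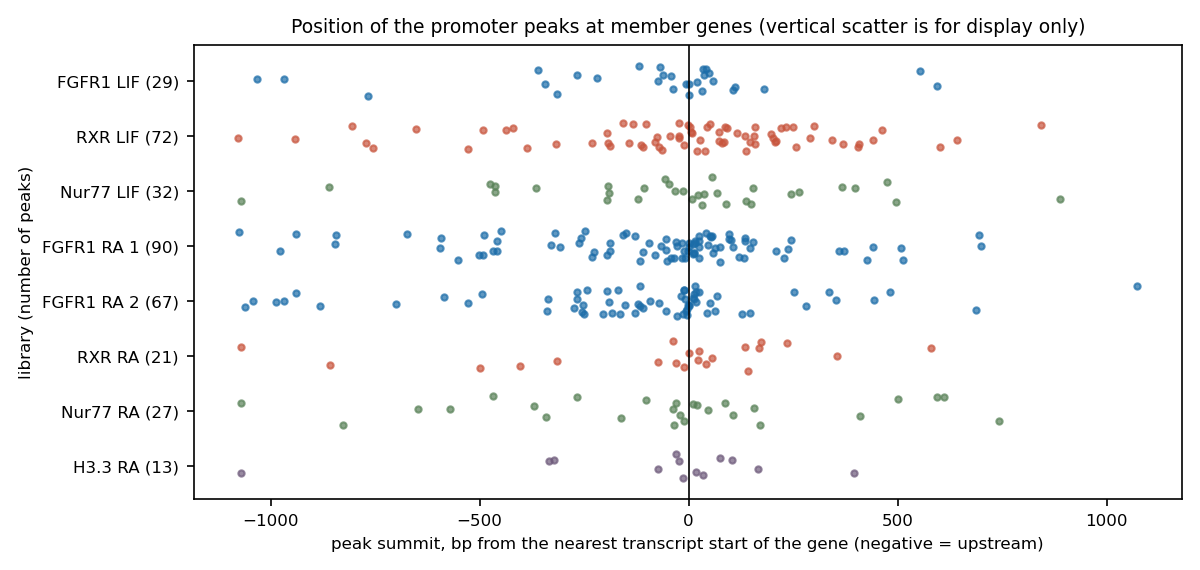
Position of each peak summit at the members, in bp from the nearest annotated start of the gene (x axis, negative upstream), by library (y axis, number of peaks in parentheses, vertical scatter for display only). Between 33.3% (RXR in LIF and Nur77 in RA) and 53.8% (H3.3) of the summits of a library lie within 100 bp of a start.

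In all, 351 peaks lay at members, from 13 for H3.3 to 90 for FGFR1 RA 1, and FGFR1 RA 1 had up to 5 at one gene. Merged where they overlapped, they formed 132 sites, of which 61 were seen in 1 library and 13 in 6 or more. No share over all genes stands beside these site counts, so they do not set the members apart. The 6 words were also counted within 50 bp of summits. The highest share was CACGTG at 4 of the 21 RXR peaks in RA (19%, against 5.6% of all promoter peaks of that library). At the 90 FGFR1 RA 1 peaks, CACGTG stood at 11 (12.2%, against 5.57% of all promoter peaks of that library), AAGATGGC at 4 (4.44%, against 1.66%) and AGGTCA at 5 (5.56%, against 3.89%). At the 67 FGFR1 RA 2 peaks CACGTG stood at 1 (1.49%, against 3.35%) and AAGATGGC at 5 (7.46%, against 3.10%), so the higher share of CACGTG was not seen in RA 2. AGGTCA stood at 1 of the 72 RXR peaks in LIF (1.39%, against 3.93%), 1 of the 21 in RA (4.76%, against 3.53%), 3 of the 32 Nur77 peaks in LIF (9.38%, against 4.2%) and 0 of the 27 in RA (against 4.29%). In the promoter stretches defined above (250 bp upstream to 50 bp downstream) the words were counted in members and in all genes, with AGGTCA at 5 members (8.06%, against 14.8%), CCGGAAG at 7 (11.3%, against 10.8%) and CACGTG at 8 (12.9%, against 7.75%), and TGACGTCA, GCATGCGC and AAGATGGC at 1, 4 and 4 members (1.61%, 6.45% and 6.45%, against 2.43%, 3.70% and 2.92%).

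Related genes outside the name rule were taken from 3 fixed lists, to be read against 17% of all genes for FGFR1 in LIF, 50.7% and 49.6% in RA, 42.5% and 23.3% for RXR in LIF and RA, and 25.5% and 25.8% for Nur77. Of 12 histone methyltransferases and demethylases with other names, FGFR1 lay at 5 in LIF and 8 in each RA library, RXR at 8 in LIF and 5 in RA, and Nur77 at 5 and 7. Ezh1, of the H3K27 methyltransferase pair Ezh1 and Ezh2, was bound in all 8 libraries, Ezh2 in all but RXR and H3.3 in RA, and Phf2 and Uty in none. Of 12 subunits of the COMPASS and MLL complexes, FGFR1 lay at 4 in LIF and 10 and 11 in RA, with Dpy30, Paxip1 and Psip1 bound in all 8 libraries and Hcfc1 in none. Of 9 partners of the H3K9 enzymes and LSD1, FGFR1 lay at 4 in LIF and 8 and 9 in RA, with Rcor2 bound in all 8 libraries. Between LIF and RA, RXR went from 8 to 7 and from 7 to 5 in the last 2 lists, and Nur77 from 6 to 5 and from 7 to 2.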

How the data were processed

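ChIP-seq peak lists of 8 libraries in 7 groups, read from the sample titles, were used. According to the submitters' processing notes, the authors aligned reads to mm10 with Bowtie 1.0 (by the study's methods keeping only reads with a single alignment) and called peaks with MACS2, in each library separately. The study's methods give a p limit of 1e-05 and name no control library. The deposited lists hold, for each peak, a score, a fold over local background, −log10 p and −log10 q values at the summit, and the position of the summit. These values were made by the authors and were used to rank and filter peaks within a list. Coordinates were counted from 1.

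Fragments at each summit were solved from the deposited fold and −log10 p with the Poisson tail of MACS2, within 0.002 of the −log10 p for 100% of the peaks. The lowest background of a list, divided by its fragment length, served as depth. Depth is thus inferred and not stated. Promoters were the stretches within 1000 bp of any transcript start of a protein-coding gene in GENCODE M21, and a peak had to share 20 bp. CpG ratios, motifs and tracts (alternating purines and pyrimidines of at least 20 bp) were read from GRCm38. A RefSeq promoter table held too few of the members and was not used. Python 3.11.15, pandas 2.3.3, scipy 1.17.1 and pysam 0.24.0 were used, and the overlap and fragment steps were tested on simulated data.

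No test was run and no p-value computed, because 6 of 7 groups have 1 library. FGFR1 in RA is given as mean ± SD of 2 libraries. Members, lists and alternatives were chosen with earlier results of these data known. Values are given for members bound in all libraries, with FGFR1 in LIF, with H3.3, with RA peaks that share no base, the strongest FGFR1 member per enzyme class (by the lower RA library) and the 3 strongest members in each other library. Genes at other sites discussed were chosen after their values were seen. The 11 alternatives varied the p, q and fold limits, the number of peaks, promoter width, overlap, starts, tracts and depth, and 2 more (rounding in the depth scaling, and soft-masked peaks) were chosen after seeing the data. Single values of 1 member and 1 sequence are not reported here.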

Additional observations from a re-analysis of the deposited data

Results flagged for a closer look

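The change from LIF to RA in the number of members with a promoter peak went in opposite directions for FGFR1 and for the receptors in the lists as deposited. It was 25 for each of the FGFR1 libraries in RA, −25 for RXR and −5 for Nur77. The directions depend on the processing, since RXR turned to 14 more members in RA when scaled to the shallower library (8 with nearest rounding), Nur77 to 1 more with promoters from 5000 bp upstream, and FGFR1 RA 1 fell below LIF (13 against 23) with an equal number of peaks. Over all genes, scaled RXR in LIF also fell below RA (3.52% against 23.3%). With an equal number of peaks, FGFR1 RA 1 stayed above LIF over all genes (18.1% against 15.5%). The difference between the factors was not tested, since RXR and Nur77 have 1 library per state. The background density was 2.71 fragments per kb for FGFR1 in LIF against 4.16 and 6.78 in RA, and 7.09 for RXR in LIF against 1.87 in RA, so depth moved the same way as the counts for both, and for Nur77 (4.98 against 3.82). The part of depth in the difference between factors was not tested.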

How the results depend on the processing

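No paired analysis was possible because the groups compared share fewer than 2 replicate numbers. Of the 13 other settings, the FGFR1 difference of 25 members stayed positive as a mean of the RA libraries and left its 1.5-fold range in 1, an equal number of peaks per list, where it was 6.5. There RA 1 had 13 members and RA 2 46, against 23 in LIF, so that the direction reversed for RA 1, and 13 members had FGFR1 in both RA libraries in place of 44. Leaving out either FGFR1 RA library gave 25 to 25 for the difference, and 50 to 50 members for the library that remained, and gives no other value for H3.3, which does not use them. The RXR difference of −25 was −16 at a −log10 p of at least 10, −8 with an equal number of peaks, 14 when scaled to the shallower library and 8 with rounding to the nearest fragment. The Nur77 difference of −5 was −9 at a −log10 p of at least 10, −9 with 5′ ends only, −8 with an equal number of peaks, −3 without soft-masked peaks and 1 with promoters from 5000 bp upstream. H3.3 lay at 7 members at a −log10 p of at least 10 in place of 11. The cause was not tested except where the setting itself removes peaks. The other settings stayed within 1.5-fold of these values.

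Limits are the single libraries, a depth that is inferred, and that no control library is named. In the depth scaling the rounding mattered, as RXR in LIF kept 5 members with fragments rounded down and 11 with the nearest whole number.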

Other observations

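Sites seen in 6 or more libraries were 13 of the 132 at members. They included a Kdm4d and Cwc15 site of 657 bp with summits spanning 142 bp and a Setd6 site of 603 bp with summits spanning 282 bp. Members bound in 6 to 8 libraries numbered 17, with a median CpG ratio of 0.871 (0 to 1.08), against 0.724 for the 29 bound in 3 to 5, 0.751 for the 11 bound in 1 or 2 and 0.757 for the 5 bound in none, so there was no steady rise. The ratios of these 5 ranged from 0.375 to 1.51, and 4 of them lay above 0.6. Neither the 13 sites nor the 17 members have a share over all genes beside them, so they describe the members only.

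Divergent starts within 1000 bp, of protein-coding neighbours, were present at 9 members: Ehmt2, Kdm1b, Kdm4d, Kdm5a, Nsdhl, Setd3, Setdb2, Smyd1 and Smyd4. At these a peak cannot be given to 1 gene of the pair. A noncoding or pseudogene start lay that close at 16 further members, on the opposite strand each time.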
